A study of Mus musculus with 4 samples.

Results

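Interferon-stimulated genes and the interferon-inducible GTPases were followed in mouse T cells with a lowered or normal transcript level of Tbx21, which encodes the transcription factor T-bet. The set was named by gene symbol: antiviral genes, interferon-inducible GTPases and the STAT and IRF factors that control them. Of 44 listed symbols, 39 had a row in the expression table of 24768 genes. Oas1a, Oas3, Rtp4, Gbp2 and Socs1 had none and are not analysed here. The samples were 2 libraries of cDNT cells labelled Tbx21-KO and 2 libraries of wild-type (WT) cDNT cells. The title of the series names double-negative T cells, which carry neither the CD4 nor the CD8 coreceptor, and the labels do not spell out the "c". The series' design text calls the Tbx21-KO cells a knockdown. The sources used here do not give age, sex, strain, the way Tbx21 was disrupted or any culture or stimulation. They also do not say whether the 2 libraries of a group came from separate animals or cultures, so each p-value reflects the spread among these 4 libraries alone, which may be technical.

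Interferons act through 2 main receptors. Type I interferons (alpha and beta) bind IFNAR1 and IFNAR2, and the kinases JAK1 and TYK2 then activate a complex that contains STAT2 and IRF9 and binds the interferon-stimulated response element (ISRE) of antiviral genes. Interferon gamma binds IFNGR1 and IFNGR2, and signalling through JAK1 and JAK2 leads to binding at the gamma-activated site (GAS). It also induces IRF1, which binds ISRE-like sequences, and the large GTPases of the GBP family and the smaller IRG family are strongly induced this way. Interferon gamma is itself a product of type 1 lymphocytes that T-bet promotes. The 44 genes were divided by textbook knowledge into 29 mainly driven by type I interferon (26 with a row) and 15 mainly driven by interferon gamma (13 with a row), although most respond to both.

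The values are FPKM, a read density scaled to gene length and library size, and imply totals of 23342603 to 24967028 counted reads per library. Tbx21, the gene that encodes T-bet, was at 2.29 and 2.41 FPKM in the Tbx21-KO libraries, against 13.2 and 11.7 FPKM in the WT libraries. It was therefore at 18.8% of the WT mean, not absent. The defining T cell gene Cd3e was at 40.2 and 39.8 FPKM in Tbx21-KO and at 57.2 and 56.1 FPKM in WT, which fits the T cell label in all 4 libraries. The 2 Tbx21-KO libraries also stood apart in another way. The 13 granulocyte markers examined summed to 10525 and 10834 FPKM in Tbx21-KO, against 10.2 and 12.98 FPKM in WT, with Csf3r listed at 0 in WT 1, and all 13 were called higher. The 9 monocyte and macrophage markers with a row summed to 445 and 475 FPKM in Tbx21-KO and to 179.5 and 180.5 FPKM in WT. Lyz2 carried most of that rise, at 197.8 and 216.2 FPKM in Tbx21-KO and at 2.68 and 3.84 FPKM in WT. Ly6c2 carried most of the WT sum, at 163.9 and 161.9 FPKM in WT, against 182.9 and 192 FPKM in Tbx21-KO. All 6 tested markers were called higher, and Ms4a7 and Mertk were under 0.3 FPKM in every library. The 19 T cell identity genes with a row summed to 1541 and 1572 FPKM in Tbx21-KO and to 2164 and 2271 FPKM in WT. The 10 dendritic cell markers with a row summed to 153.9 and 159.6 FPKM in Tbx21-KO and to 51.9 and 57.5 FPKM in WT. Batf3 and the MHC class II genes H2-Aa, H2-Ab1, H2-Eb1 and Cd74 carried that sum and were called higher, while Itgax and Xcr1 had log2 fold changes of -0.22 and -0.29 and were not called, and Flt3, Zbtb46 and Clec9a were under 0.3 FPKM in every library. The 6 B cell markers summed to 75.8 and 71.96 FPKM in Tbx21-KO and to 39.1 and 41.2 FPKM in WT, with both tested markers, Igkc and Ighm, called higher. Granulocytes, macrophages, dendritic cells and B cells also respond to interferon, and their part in any result on these genes was not tested. Both libraries of 1 group are involved, so no result can be given without them. In bulk RNA, fewer cells of a type and less RNA per cell cannot be told apart.

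Most of the genes driven by interferon gamma were called higher in Tbx21-KO cells, while those driven by type I interferon were called in both directions about equally often. The difference between the classes was not tested. Of the 39 genes, 38 had a mean of at least 1 FPKM and were tested. Among these, 16 were higher in Tbx21-KO and 8 lower (limma, adjusted p under 0.05), together 63.2%. Of all 11013 genes tested, 53.1% were called, 30.1% as higher and 23.0% as lower. Of the 13 interferon gamma members, 10 were higher, 1 was lower and 2 were not called, with a median log2 fold change of 0.41 (the Tbx21-KO mean less the WT mean of log2(FPKM + 1)). Of the 25 type I members tested, 6 were higher, 7 were lower and 12 were not called, with a median of -0.000864. The median of all genes tested was 0.04. The interferon gamma class was not uniform. Of its 10 higher members, 6 were IRG and 3 were GBP genes. The median of the 6 IRG members lay 0.49 above that of all genes, and that of the 6 GBP members 0.07 above. Summed over the 13 interferon gamma members, the level was 580.4 and 578 FPKM in Tbx21-KO, against 463 and 438 FPKM in WT. Over the 26 type I members it was 536 and 538 FPKM in Tbx21-KO and 493 and 489.6 FPKM in WT.

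Scaling bore on the counts. With the libraries rescaled so that the T cell identity genes had the same median log2 level in each, the median of all genes moved by 0.26. Of all genes, 64.3% were then called, 56.9% as higher and 7.37% as lower. Of the interferon gamma members 11 were higher and 2 not called under that scaling, and of the type I members 15 were higher, 6 lower and 4 not called. Each class median was also set against the median of all genes. The T cell list and median-of-ratios scalings divide each library by a single factor. They shift all genes nearly alike, so they cannot test this distance. The interferon gamma median lay 0.37 above that of all genes with the deposited values, 0.41 above when rescaled to the T cell list, 0.51 above after quantile normalization and 0.37 above with median-of-ratios scaling. The type I median less that of all genes was -0.04, -0.02, 0.05 and -0.04 under the same 4 treatments of the values.

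**Figure D1:**
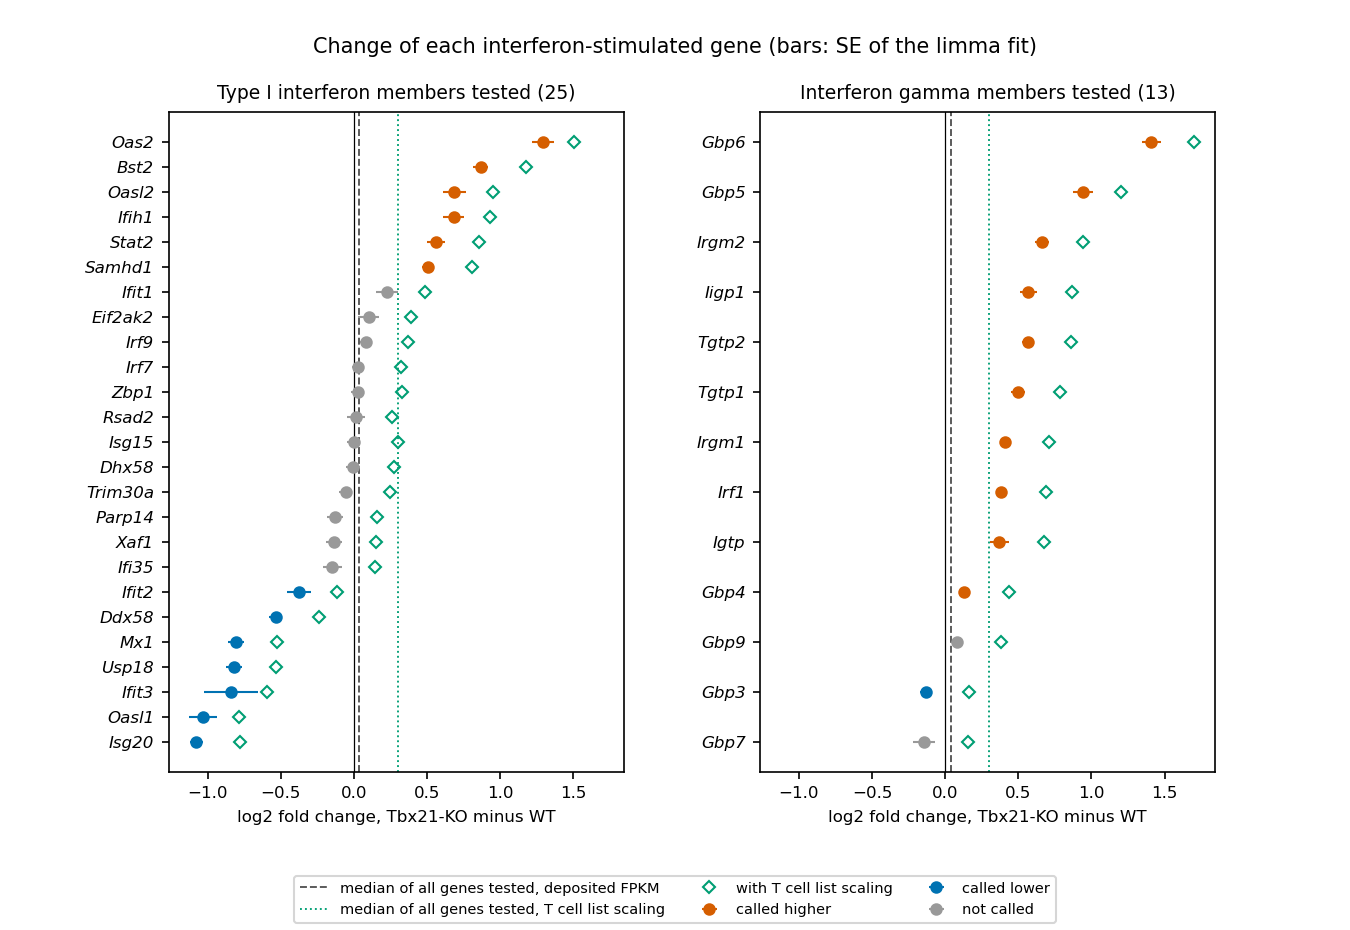
Log2 fold change (Tbx21-KO minus WT, x axis) of each tested gene, with type I members on the left and interferon gamma members on the right; filled points are the deposited values with the SE of the limma fit, and open diamonds those after rescaling to the T cell list. Type I members run from -1.08 (Isg20) to 1.30 (Oas2) around the median of all genes, while most interferon gamma members lie above it; Gbp3, Gbp7 and several type I members close to 0 change sign between the scalings.

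Ifng, the gene of interferon gamma, was at 22.5 and 23.5 FPKM in Tbx21-KO and at 68.2 and 51.4 FPKM in WT. Every Tbx21-KO library was below every WT library (log2 fold change -1.33, SE 0.14, limma adjusted p = 0.00151). In the libraries where most interferon gamma members were higher, the Ifng transcript was at 38.5% of its WT mean. The type I interferon genes Ifnb1, Ifna1, Ifna2 and Ifna4 were listed at 0 to 0.073 FPKM in every library, too low to compare.

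The receptors and kinases moved in both directions. Ifngr2, the signalling chain of the interferon gamma receptor, was at 7.82 and 8.94 FPKM in Tbx21-KO, against 2.22 and 2.53 FPKM in WT. The difference was 1.47 on the log2 scale (SE 0.09, limma adjusted p = 0.000312), and the groups lay far apart relative to the gap between replicates. Ifngr1, the ligand-binding chain, was far more abundant, at 153.9 and 158.7 FPKM in Tbx21-KO and 173 and 175 FPKM in WT. Its log2 fold change of -0.16 was called lower (limma adjusted p = 0.0218), but with the T cell list scaling it turned to 0.15 and was called higher, and the call was lost without either Tbx21-KO library, without WT 2 and without a variance trend. Ifnar2 was at 12.5 and 12.7 FPKM in Tbx21-KO and at 9.91 and 9.11 FPKM in WT and was called higher (log2 fold change 0.37). Ifnar1 was at 14.8 and 14.5 FPKM in Tbx21-KO and at 16.4 and 15.9 FPKM in WT and was not called (log2 fold change -0.13, limma adjusted p = 0.0643). Of the 9 tested receptor and kinase genes, 4 were higher and 4 lower, together 88.9%, beside 53.1% of all genes called. With the T cell list scaling 5 were higher and 0 lower, beside 56.9% and 7.37% of all genes.

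Socs3, a feedback inhibitor of cytokine receptors, was at 42.0 and 39.7 FPKM in Tbx21-KO and at 19.4 and 17.5 FPKM in WT, a log2 fold change of 1.11. Of the 7 inhibitory genes of the pathway that were listed, 4 were higher (limma) and 3 were not called, beside 53.1% of all genes called. Quantile normalization called 3 higher and 1 lower, beside 2438 higher and 3801 lower of all 11013 genes tested. The T cell list scaling called all 7 higher, beside 56.9% of all genes.

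**Figure D2:**
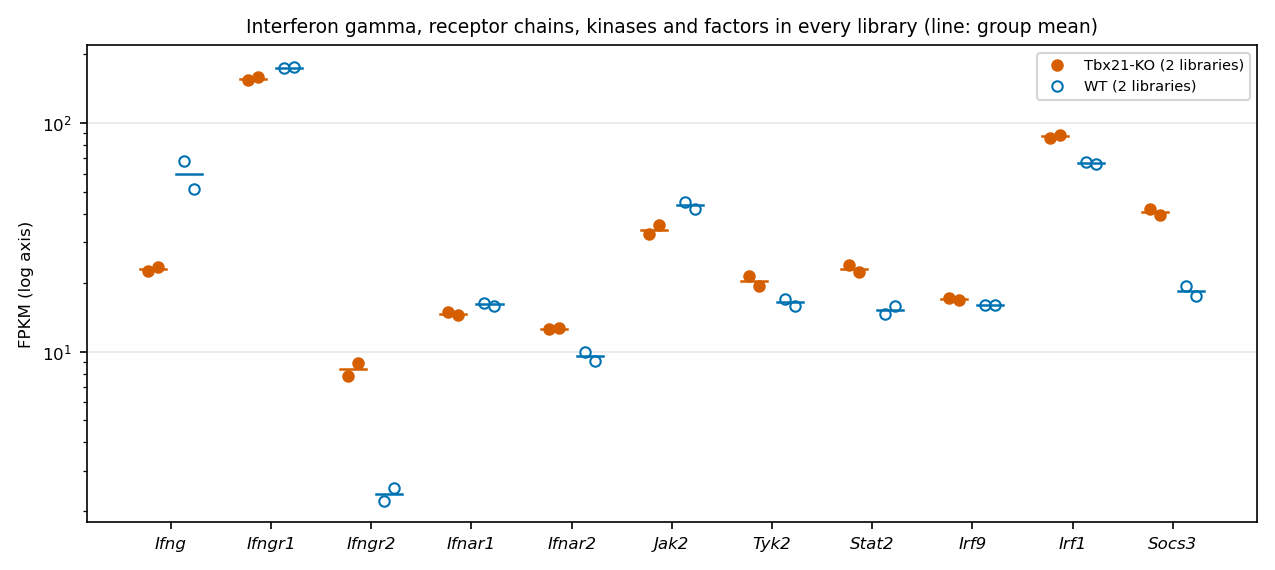
FPKM on a log axis of Ifng, the receptor chains, kinases, Stat2, Irf9, Irf1 and Socs3 in every library, with Tbx21-KO left of WT for each gene and a line at each group mean. Ifng lies at 22.5 and 23.5 FPKM in Tbx21-KO and at 68.2 and 51.4 FPKM in WT, while the Tbx21-KO points of Ifngr2 and Socs3 lie above their WT points.

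Among the factors in the set, the 2 that were called were higher. Irf1, the main secondary factor of the interferon gamma response, was at 86.0 and 88.7 FPKM in Tbx21-KO, against 67.2 and 66.3 FPKM in WT. The difference was 0.38 on the log2 scale (SE 0.04, limma adjusted p = 0.00132). Stat2, a subunit of the ISRE-binding complex of the type I pathway, was at 23.9 and 22.2 FPKM in Tbx21-KO and at 14.7 and 15.9 FPKM in WT (log2 fold change 0.56, SE 0.06, limma adjusted p = 0.00183). Both kept their call in all alternatives. Irf9, the DNA-binding subunit of that complex, was at 17.1 and 16.7 FPKM in Tbx21-KO and at 16.0 and 15.9 FPKM in WT. Irf7, which amplifies type I interferon production, was at 16.97 and 17.5 FPKM in Tbx21-KO and at 17.1 and 16.7 FPKM in WT. Neither was called, with log2 fold changes of 0.08 and 0.03. The T cell list scaling called both of them higher (0.37 and 0.32), beside a median of 0.30 for all genes.

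All 6 IRG members of the set rose, with log2 fold changes from 0.37 to 0.66 and a median of 0.53, but Ifi47, an IRG gene outside the set, fell. IRG proteins are immunity-related GTPases that act on the vacuoles of intracellular parasites. Irgm1, Irgm2 and Igtp belong to the regulatory class, and Iigp1, Tgtp1 and Tgtp2 to the effector class that coats the vacuole. Igtp was the most abundant gene of the interferon gamma class, at 145 and 139.7 FPKM in Tbx21-KO and at 116 and 104 FPKM in WT. Its call was lost without Tbx21-KO 1, although its direction did not change. Irgm2 had the largest change of the family, at 13.03 and 13.4 FPKM in Tbx21-KO and at 8.18 and 7.79 FPKM in WT (log2 fold change 0.66, SE 0.05, limma adjusted p = 0.000596). Irgm1 was at 29.7 and 29.2 FPKM in Tbx21-KO and at 21.8 and 22.1 FPKM in WT.

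The effector class changed by similar amounts. Iigp1 was at 38.3 and 36.6 FPKM in Tbx21-KO, against 26.1 and 23.8 FPKM in WT. Tgtp2 was at 36.6 and 35.5 FPKM in Tbx21-KO and at 23.8 and 24.4 FPKM in WT, and Tgtp1 at 18.9 and 19.9 FPKM in Tbx21-KO and at 13.6 and 13.3 FPKM in WT. The groups did not overlap for any of the 6 genes, as for 33 of the 39 genes of the set and 14354 of all 24768. Of all genes, 708 were at 0 in every library and 11013 were tested, against 38 of the 39. These shares are therefore not comparable. The longest coding transcripts of Tgtp1 and Tgtp2 were 99.8% identical over 2811 bases, so reads may be split between them. Their summed level was 55.5 and 55.4 FPKM in Tbx21-KO and 37.4 and 37.6 FPKM in WT, 148% of the WT mean. With the T cell list scaling, these 6 IRG genes had a median of 0.83, against 0.30 for all genes, and all were called higher.

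Ifi47, named here after its values were seen, encodes another interferon-inducible IRG GTPase and lies next to Tgtp2 on GRCm38 chromosome 11, from 49076587 to 49096974. It was at 47.0 and 53.4 FPKM in Tbx21-KO, against 68.4 and 65.4 FPKM in WT (log2 fold change -0.41, SE 0.07, limma adjusted p = 0.00797). With the T cell list scaling the value was -0.10 and the call was lost. Ifi47 is 1 gene, called against the IRG members of the set with the deposited values, and it does not describe the rest of the family.

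The promoters of 4 IRG genes that were called higher are shown because their motifs have a common layout. The sequences are RefSeq promoter windows of build GRCm38.p6, from 250 bases before to 50 after a transcript start, written on the strand of the gene. Capitals mark every match to the ISRE core, which is GAAA, any 2 bases and GAAA again, or to the GAS motif TTCNNNGAA, where N is any base. Each was searched on both strands, and overlapping matches were counted.
Tgtp2 (chr11:49064163-49064462, minus strand): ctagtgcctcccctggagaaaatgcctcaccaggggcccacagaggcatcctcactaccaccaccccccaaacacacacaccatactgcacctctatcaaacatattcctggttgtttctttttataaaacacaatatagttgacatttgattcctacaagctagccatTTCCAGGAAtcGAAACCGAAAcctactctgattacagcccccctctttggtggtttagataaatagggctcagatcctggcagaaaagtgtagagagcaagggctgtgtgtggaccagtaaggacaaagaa
Tgtp1 (chr11:48992197-48992496, minus strand): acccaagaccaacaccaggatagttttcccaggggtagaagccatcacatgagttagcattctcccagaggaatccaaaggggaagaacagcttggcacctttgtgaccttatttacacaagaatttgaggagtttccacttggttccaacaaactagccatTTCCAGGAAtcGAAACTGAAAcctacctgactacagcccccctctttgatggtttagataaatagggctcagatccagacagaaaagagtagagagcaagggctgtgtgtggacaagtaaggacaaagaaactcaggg
Irgm2 (chr11:58214727-58215026, plus strand): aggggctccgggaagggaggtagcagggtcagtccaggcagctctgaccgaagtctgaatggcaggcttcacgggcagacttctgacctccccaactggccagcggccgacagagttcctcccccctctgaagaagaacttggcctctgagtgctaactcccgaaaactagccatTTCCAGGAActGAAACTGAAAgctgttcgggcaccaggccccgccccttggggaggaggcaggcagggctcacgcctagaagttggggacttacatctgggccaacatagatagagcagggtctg
Igtp (chr11:58199306-58199605, plus strand): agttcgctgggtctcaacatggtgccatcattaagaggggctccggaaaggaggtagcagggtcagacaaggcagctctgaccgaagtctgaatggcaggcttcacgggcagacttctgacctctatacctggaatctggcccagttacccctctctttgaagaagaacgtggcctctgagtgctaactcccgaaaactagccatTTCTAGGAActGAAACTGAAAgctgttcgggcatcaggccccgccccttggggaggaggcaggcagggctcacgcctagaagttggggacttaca

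In each of these 4 windows a GAS match was followed by an ISRE core after a gap of 2 bases, so that the motifs form 1 continuous stretch. The stretch began at -88 in Tgtp1, -81 in Tgtp2, -75 in Irgm2 and -45 in Igtp, relative to the transcript start. Searched on both strands of the windows of all 27025 genes in the promoter table, it was present in 5, or 0.0185%. The layout searched for was that of these 4 windows, which are among the 5. The share therefore cannot test whether the stretch goes with a higher call. The other one was Gm12185, which shares exon bases with Tgtp1 and was not called (log2 fold change -0.25, limma adjusted p = 0.143). The genes are tandem relatives with similar flanking sequence, so their matches are not independent of each other. Irgm1 had a pair of overlapping ISRE cores from -30 to -15 and no GAS match in its window. The window of Ifi47 held 0 matches to either motif. Iigp1 had no entry in the promoter table.

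Other windows show the 2 motifs apart. Irf1, induced directly by interferon gamma, had a GAS match alone, while Ifit3, an antiviral gene that was lower in Tbx21-KO, had a pair of ISRE cores and no GAS match. Gbp5 and Gbp3 lie close together on chromosome 3 and were called higher and lower, although the sign of Gbp3 turned when rescaled to the T cell list. The window of Gbp7, which lies between them, held matches to both motifs as that of Gbp5 did, and Gbp7 was not called (log2 fold change -0.14).
Irf1 (chr11:53769764-53770063, plus strand): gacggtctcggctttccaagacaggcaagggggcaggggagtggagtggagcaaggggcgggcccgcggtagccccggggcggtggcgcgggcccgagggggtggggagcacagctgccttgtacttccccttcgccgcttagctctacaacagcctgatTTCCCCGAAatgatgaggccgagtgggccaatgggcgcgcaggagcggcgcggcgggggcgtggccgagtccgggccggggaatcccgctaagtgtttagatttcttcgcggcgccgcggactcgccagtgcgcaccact
Ifit3 (chr19:34583279-34583578, plus strand): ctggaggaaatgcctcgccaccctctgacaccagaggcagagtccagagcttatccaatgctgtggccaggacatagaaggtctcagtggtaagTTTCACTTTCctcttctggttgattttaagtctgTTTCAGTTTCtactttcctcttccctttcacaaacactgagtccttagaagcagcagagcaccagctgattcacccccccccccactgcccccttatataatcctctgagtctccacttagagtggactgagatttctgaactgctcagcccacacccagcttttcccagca
Gbp5 (chr3:142496684-142496983, plus strand): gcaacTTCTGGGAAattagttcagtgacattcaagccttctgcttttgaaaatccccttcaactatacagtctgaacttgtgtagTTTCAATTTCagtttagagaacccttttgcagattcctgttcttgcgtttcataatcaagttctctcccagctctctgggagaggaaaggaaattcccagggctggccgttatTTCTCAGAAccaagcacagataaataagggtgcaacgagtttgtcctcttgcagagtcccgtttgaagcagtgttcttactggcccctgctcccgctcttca
Gbp3 (chr3:142559794-142560093, plus strand): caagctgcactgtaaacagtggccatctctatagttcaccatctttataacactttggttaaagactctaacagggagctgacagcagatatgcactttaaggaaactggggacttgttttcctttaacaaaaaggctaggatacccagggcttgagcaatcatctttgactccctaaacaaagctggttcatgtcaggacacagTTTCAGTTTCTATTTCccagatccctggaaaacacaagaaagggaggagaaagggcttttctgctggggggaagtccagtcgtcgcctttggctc

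The promoter table had windows for 29 of the 39 genes. An ISRE core lay in the windows of 18 (62.1%), against 3.99% of all 27025 genes, and a GAS match in those of 13 (44.8%), against 9.55%. By class, 8 of 9 interferon gamma members and 10 of 20 type I members had an ISRE core, and 7 of 9 and 6 of 20 had a GAS match. Both motifs were present in 6 of 9 interferon gamma members and in 2 of 20 type I members, against 0.614% of all genes. The 6 were the tandem relatives Tgtp1, Tgtp2, Igtp and Irgm2 and the neighbours Gbp5 and Gbp7. They are therefore not independent cases. Among the type I members the motifs did not separate the directions. An ISRE core was present in Bst2, Stat2 and Ifih1, which were higher, in Ifit3 and Ddx58, which were lower, and in Isg15, Ifit1 and Rsad2, which were not called. Some genes have several windows and count once if any window holds the motif. A match describes letters in a window and does not show that a factor binds there.

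**Figure D3:**
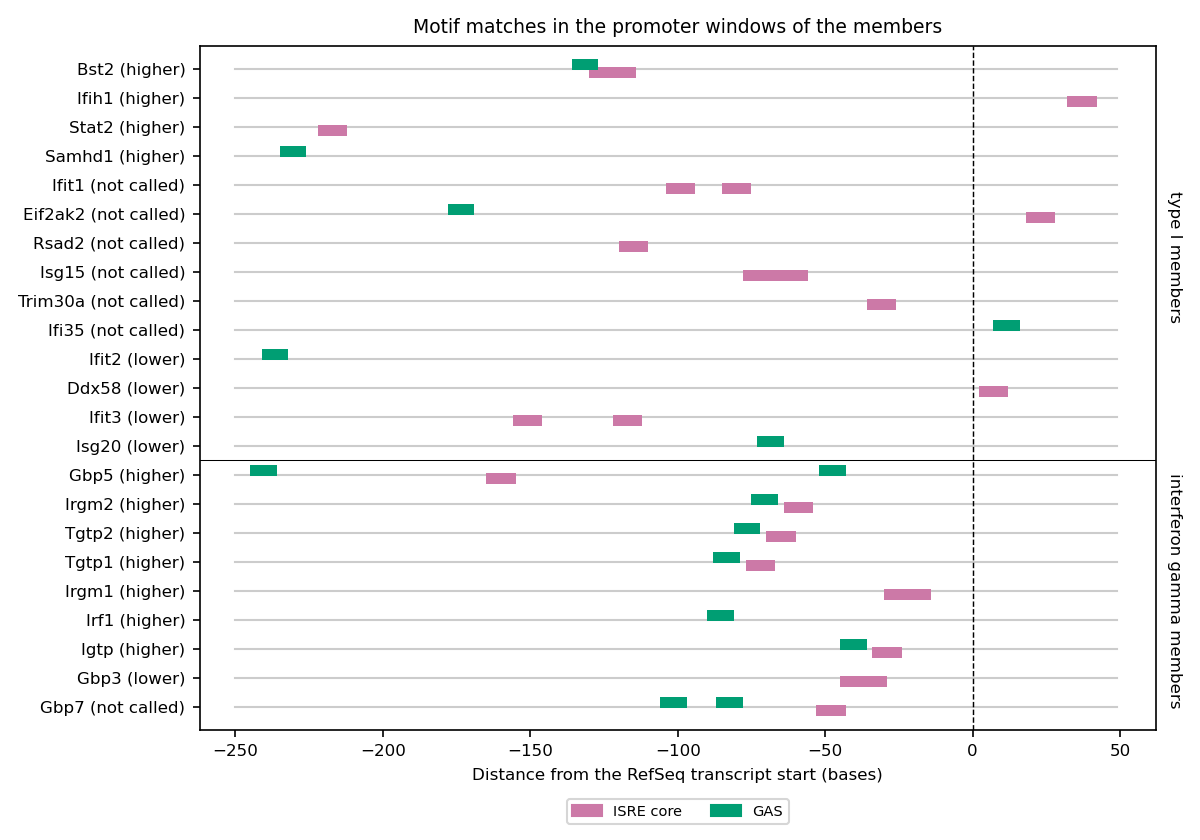
Positions of ISRE core and GAS matches (coloured blocks) from 250 bases before to 50 after the RefSeq transcript start, for the 23 of 29 genes with at least 1 match, ordered by log2 fold change within the type I members (top) and the interferon gamma members (bottom), with the limma call in brackets. Tgtp1, Tgtp2, Irgm2 and Igtp share the adjacent GAS and ISRE blocks; Trim30a is drawn for 1 of its windows.

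The GBP members were called in both directions. Guanylate-binding proteins are large GTPases that attack intracellular bacteria and parasites and feed into inflammasome activation. Of 6 members with a row, Gbp4, Gbp5 and Gbp6 were higher, Gbp3 was lower and Gbp7 and Gbp9 were not called, with a median log2 fold change of 0.11. Gbp6 (GRCm38 chromosome 5, 105270702 to 105293698) had the largest change of all 38 tested genes. It was at 37.8 and 39.0 FPKM in Tbx21-KO, against 14.7 and 13.1 FPKM in WT (log2 fold change 1.41, SE 0.06, limma adjusted p = 0.000134). Its longest coding transcript was 97.8% identical to that of Gbp10 and 99.8% identical to that of the overlapping gene Gm43302. Summed with both, the level was 44.2 and 45.5 FPKM in Tbx21-KO and 19.5 and 18.5 FPKM in WT, 236% of the WT mean.

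Gbp5, known in mice for promoting inflammasome assembly, was at 8.55 and 9.55 FPKM in Tbx21-KO and at 4.21 and 4.24 FPKM in WT (log2 fold change 0.94, SE 0.07, limma adjusted p = 0.000535). The replicates of Gbp5 lay close together relative to the difference between the groups. Gbp4 was the most abundant member of the family, at 84.5 and 86.0 FPKM in Tbx21-KO and at 79.0 and 76.5 FPKM in WT. Its log2 fold change of 0.13 was small and its call was lost in 7 of 15 alternatives, among them the fits without Tbx21-KO 1, without Tbx21-KO 2 and without WT 2. Gbp9 was at 27.7 and 28.0 FPKM in Tbx21-KO and at 26.6 and 26.0 FPKM in WT (log2 fold change 0.08). It was not called, but the T cell list scaling called it higher (0.38), beside a median of 0.30 for all genes.

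Gbp3 and Gbp7 lie beside Gbp5 on chromosome 3 and did not follow it. Gbp3 was at 22.9 and 22.6 FPKM in Tbx21-KO and at 25.3 and 24.8 FPKM in WT, a log2 fold change of -0.13 whose call was lost in 8 of 15 alternatives, among them each fit without 1 library, and whose sign turned with the T cell list scaling (0.17). Gbp7 was at 31.4 and 29.8 FPKM in Tbx21-KO and at 36.3 and 31.7 FPKM in WT and was not called (log2 fold change -0.14, with 0.16 under that scaling), but it was called lower without WT 2 (-0.24, limma adjusted p = 0.0218). Of 4 GBP genes outside the set, Gbp2b was too low to test and Gbp8, Gbp10 and Gbp11 were called higher, with log2 fold changes of 0.45, 0.28 and 0.88, the call of Gbp10 being lost in 5 alternatives.

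**Figure D4:**
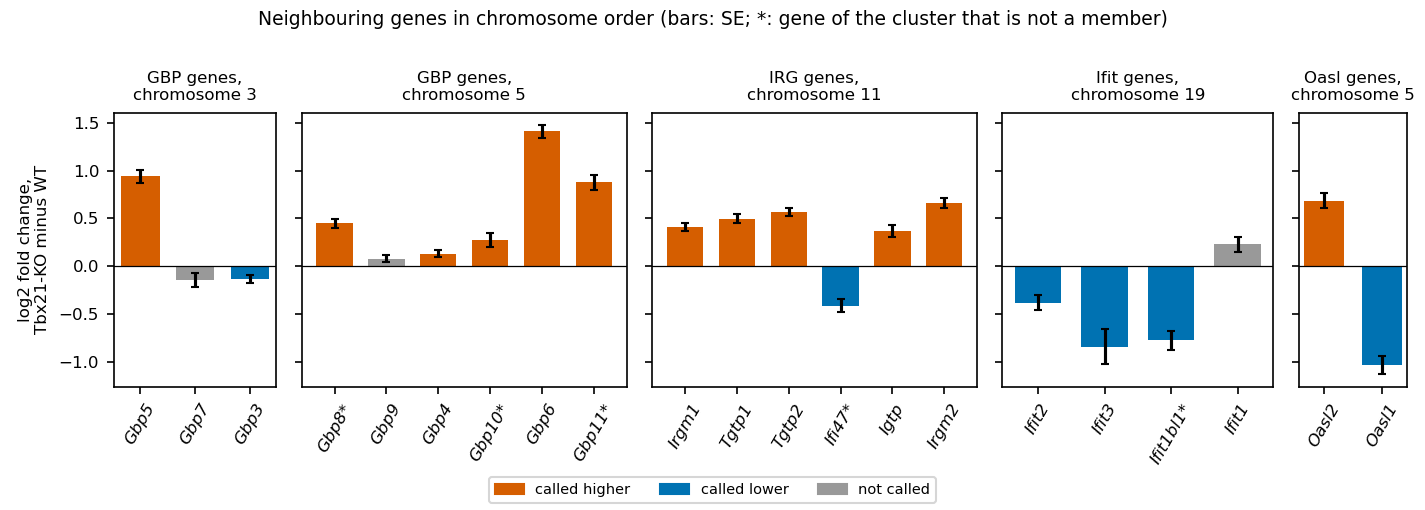
Log2 fold change (Tbx21-KO minus WT, y axis) of neighbouring genes in chromosome order, with the SE of the limma fit and bars coloured by call; a star marks a gene outside the set, and Ifit3b is not drawn because its mean was under 1 FPKM. The 5 IRG genes of the set on chromosome 11 have bars above 0 and Ifi47 a bar below it, and the GBP genes of chromosome 3, the Ifit genes and the adjacent Oasl2 and Oasl1 also have bars on both sides of 0; Gbp3 and Gbp7 turn positive with the T cell list scaling.

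Among the type I members, the 6 rises were Oas2, Bst2, Oasl2, Ifih1, Stat2 and Samhd1, and each kept its call in every alternative that tested it. Oas2 (GRCm38 chromosome 5, 120730333 to 120749853), an oligoadenylate synthetase whose product activates RNase L, was at 4.62 and 4.36 FPKM in Tbx21-KO, against 1.26 and 1.21 FPKM in WT. The log2 fold change was 1.30, with an SE of 0.08 (limma adjusted p = 0.000275), and the values correspond to 480 and 466 reads in Tbx21-KO and 140 and 130 reads in WT. Bst2, the virus-tethering membrane protein tetherin, had the highest mean of all 39 genes over the 4 libraries, at 167.5 and 173.5 FPKM in Tbx21-KO and at 89.4 and 96.8 FPKM in WT (log2 fold change 0.87, SE 0.05, limma adjusted p = 0.000311).

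Bst2 is also a surface marker of plasmacytoid dendritic cells. The 3 other markers of those cells with a row, Tcf4, Cox6a2 and Ccr9, summed to 2.41 and 2.46 FPKM in Tbx21-KO and to 1.94 and 2.10 FPKM in WT. Ifih1, which encodes the RNA sensor MDA5, was at 6.196 and 5.77 FPKM in Tbx21-KO and at 3.53 and 3.18 FPKM in WT. Samhd1, a nucleotide hydrolase that restricts viruses and is abundant in myeloid cells, was at 46.2 and 45.3 FPKM in Tbx21-KO and at 32.5 and 31.3 FPKM in WT. Their log2 fold changes were 0.68 and 0.51.

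The 7 falls among the type I members were Isg20, Oasl1, Ifit3, Usp18, Mx1, Ddx58 and Ifit2. Isg20 (GRCm38 chromosome 7, 78913424 to 78920396), an RNA exonuclease, was at 27.0 and 25.5 FPKM in Tbx21-KO, against 56.0 and 57.0 FPKM in WT. Its level was 46.5% of that in WT (log2 fold change -1.08, SE 0.04, limma adjusted p = 0.000103). Usp18, which removes ISG15 from proteins and restrains signalling at IFNAR2, was at 10.03 and 10.7 FPKM in Tbx21-KO and at 19.5 and 18.5 FPKM in WT. Mx1, an antiviral GTPase, was at 7.11 and 7.42 FPKM in Tbx21-KO and at 13.8 and 13.1 FPKM in WT. Ddx58, which encodes the RNA sensor RIG-I, was at 16.5 and 16.1 FPKM in Tbx21-KO and at 24.5 and 23.5 FPKM in WT. The log2 fold changes of Usp18, Mx1 and Ddx58 were -0.82, -0.81 and -0.53, and all 3 were called lower in every alternative, the T cell list scaling included.

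Relatives within the type I class went in opposite directions. Oasl1 and Oasl2 encode OAS-like proteins and are adjacent on GRCm38 chromosome 5, Oasl2 from 114896936 to 114912234 and Oasl1 from 114923240 to 114937915, on the same strand. Oasl1, which in mice restrains Irf7 translation, was at 2.40 and 2.95 FPKM in Tbx21-KO and at 6.30 and 6.67 FPKM in WT (log2 fold change -1.03, SE 0.09, limma adjusted p = 0.00106). Oasl2 was at 8.21 and 7.46 FPKM in Tbx21-KO and at 4.73 and 4.25 FPKM in WT (log2 fold change 0.69, SE 0.08, limma adjusted p = 0.00206). Both directions held under the T cell list scaling, at -0.78 and 0.95. Neither promoter window held an ISRE core or a GAS match. The RNA sensors also differed, since Ifih1 was higher and Ddx58 was lower. Dhx58, which encodes the regulator LGP2, was at 9.52 and 9.73 FPKM in Tbx21-KO and at 9.51 and 9.78 FPKM in WT. Its log2 fold change was -0.00283 (limma adjusted p = 0.967). The T cell list scaling called Dhx58 higher (0.28), beside a median of 0.30 for all genes.

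The Ifit genes encode proteins that bind viral RNA and form a cluster on chromosome 19. Ifit3 was at 2.09 and 3.46 FPKM in Tbx21-KO and at 5.85 and 5.41 FPKM in WT, and was called lower (log2 fold change -0.84, SE 0.18, limma adjusted p = 0.017). Its Tbx21-KO libraries, with 85 and 145 reads, differed more than the replicates of any other of the 39 genes, by 0.53 on the log2 scale, and the call was lost with no filter on low values. Its transcript was 97.8% identical to that of Ifit3b, and the 2 summed to 2.47 and 3.89 FPKM in Tbx21-KO and to 6.93 and 6.33 FPKM in WT. Ifit2 was at 5.27 and 4.65 FPKM in Tbx21-KO and at 7.09 and 6.38 FPKM in WT, a log2 fold change of -0.38 whose call was lost in 4 alternatives, among them those without Tbx21-KO 2 and without WT 1. Ifit1 was at 5.18 and 5.14 FPKM in Tbx21-KO and at 4.54 and 3.98 FPKM in WT, with a log2 fold change of 0.23 that was not called (limma adjusted p = 0.0551) and was called without WT 1.

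The 12 type I members that were not called had log2 fold changes between -0.15 and 0.23. Isg15, a ubiquitin-like modifier, was at 31.1 and 30.9 FPKM in Tbx21-KO and at 31.8 and 30.1 FPKM in WT. Rsad2, which encodes viperin, was at 3.97 and 3.94 FPKM in Tbx21-KO and at 3.93 and 3.87 FPKM in WT. Zbp1, a sensor of Z-form nucleic acid, was at 39.6 and 39.1 FPKM in Tbx21-KO and at 40.0 and 37.4 FPKM in WT. None of the 3 was called with the deposited values. The T cell list scaling called all 3 higher, at 0.30, 0.26 and 0.33, beside a median of 0.30 for all genes, and quantile normalization called Rsad2 lower (-0.22). Eif2ak2, which encodes the kinase PKR, and Trim30a had log2 fold changes of 0.10 and -0.06. Ifi35, Xaf1 and Parp14 had log2 fold changes of -0.15, -0.13 and -0.13. None of these 5 was called with the deposited values, and the last 4 turned positive with the T cell list scaling. That scaling called Eif2ak2 (0.39) and Trim30a (0.24) higher. Xaf1 and Parp14 were called lower with median-of-ratios scaling and after quantile normalization. Ifi44, at 0.629 and 0.638 FPKM in Tbx21-KO and at 1.18 and 1.03 FPKM in WT, was below the minimum and not tested.

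**Figure D5:**
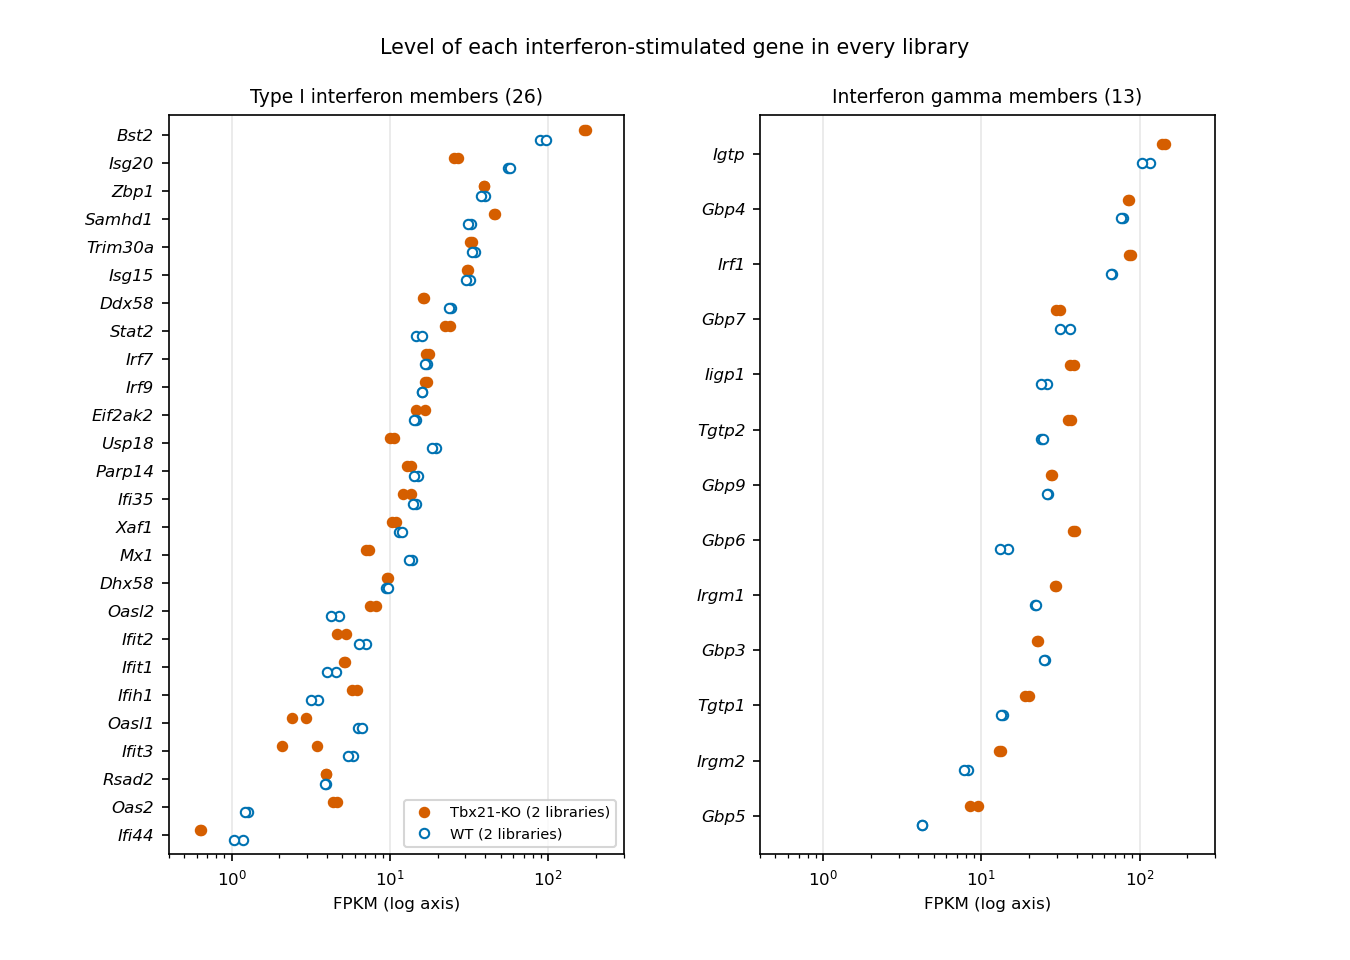
FPKM on a log axis of all 39 genes in every library, with Tbx21-KO (filled) drawn just above WT (open) for each gene, ordered by mean level within the type I members (left) and the interferon gamma members (right). Bst2 and Igtp are the most abundant of their classes, and Ifit3 shows the widest gap between replicates, at 2.09 and 3.46 FPKM in Tbx21-KO.

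Replicates were close. The median absolute difference between the 2 libraries of a group, on the log2(FPKM + 1) scale, was 0.06 in Tbx21-KO and 0.07 in WT for the type I members, and 0.045 in Tbx21-KO and 0.035 in WT for the interferon gamma members. By mean FPKM over the 4 libraries, which is a level per length, the interferon gamma members were led by Igtp, Gbp4 and Irf1, and the type I members by Bst2, Isg20 and Zbp1. The place of Isg20 rested on WT, since it averaged 26.3 ± 1.07 FPKM in Tbx21-KO and 56.5 ± 0.697 FPKM in WT, whereas Samhd1 averaged 45.7 ± 0.662 FPKM in Tbx21-KO and 31.9 ± 0.83 FPKM in WT (SD, n = 2 each). Gbp4 averaged 85.3 ± 1.08 FPKM in Tbx21-KO and 77.7 ± 1.80 FPKM in WT, and Irf1 averaged 87.4 ± 1.95 FPKM in Tbx21-KO and 66.8 ± 0.665 FPKM in WT (SD, n = 2 each), so their order differed between the groups, within the spread in Tbx21-KO and beyond it in WT. Igtp averaged 142 ± 3.71 FPKM in Tbx21-KO and 110.1 ± 8.77 FPKM in WT (SD, n = 2 each), above both.

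Other genes of the pathway, listed beside the set, gave a reference for its size. Of 89 listed, 82 had a row and 65 were tested, with a median log2 fold change of 0.04. With the deposited values 27 were higher and 21 lower, together 73.8%, beside 53.1% of all genes (30.1% higher and 23.0% lower). When rescaled to the T cell list, 42 were higher and 9 lower, together 78.5%, beside 64.3% of all genes (56.9% higher and 7.37% lower). Among 41 other interferon-stimulated genes tested, 17 were higher and 13 lower with the deposited values, together 73.2%. Beside those already given, the rule of an absolute log2 fold change of at least 1 named 4 genes. Ikbke, which encodes a kinase that activates IRF3 and IRF7, was at 13.6 and 12.6 FPKM in Tbx21-KO and at 5.19 and 5.21 FPKM in WT. Irf5, a factor of myeloid and B cells, was at 14.1 and 14.9 FPKM in Tbx21-KO and at 6.19 and 6.90 FPKM in WT. Both were called higher, at 1.19 and 1.04. Ifi204 and Ifi209 belong to the same family of DNA-binding proteins and were called in opposite directions. Ifi204 was at 4.70 and 4.46 FPKM in Tbx21-KO and at 1.90 and 1.40 FPKM in WT (log2 fold change 1.08), and Ifi209 at 21.4 and 20.9 FPKM in Tbx21-KO and at 49.1 and 46.7 FPKM in WT (log2 fold change -1.14).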

How the data were processed

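FPKM values per gene for the 4 libraries were computed by the authors and deposited as 1 table. Per the submitters' processing notes, the build was GRCm38 (also given as mm10). The sources used here name no aligner, counting tool or use of strand. Of 24769 rows, the last is cut short and was omitted. Ensembl IDs were matched to GENCODE mouse release M21 (24720 of 24768). Library totals were estimated from the low values and exon lengths, where 96.8% to 97.3% of values under 20 reads came out whole within 0.1 read.

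Tbx21-KO was compared with WT by limma 3.58.1 (R 4.3.3) on log2(FPKM + 1), with a pseudocount of 1 and an intensity trend, in genes with a mean of at least 1 FPKM. P-values were adjusted by Benjamini-Hochberg over all 11013 genes tested. With 2 libraries against 2, the smallest two-sided p of an exact permutation test is 0.33, so none was used. The fit was tested on simulated data. The members, gene lists, class division, scalings and the rule for named genes (Tbx21; every member by role; receptor chains and Ifng; other pathway genes called with a change of at least 1 on the log2 scale) were chosen with earlier results of these data known. Motif searches were added after the values were seen. Libraries of a group differed by more than counting noise (median chi-square 1.31 in Tbx21-KO and 1.46 in WT, against 0.455 from counting alone) and were kept as replicates. Some members share exon bases with other genes, such as Gbp6 with Gm43302 and Ifi35 with an antisense gene, and those reads cannot be told apart. Items withheld from this account are not reported here.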

Additional observations from a re-analysis of the deposited data

How the results depend on the processing

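Over 15 alternatives (pseudocount, filter, scaling, variance trend, replicate block, each library left out, and voom on recovered reads, the last chosen after seeing the data), 19 of the 24 called members kept call and direction wherever tested. The exceptions were Gbp3, Gbp4, Ifit2, Ifit3 and Igtp. Rescaled to the T cell list, all genes called higher numbered 6264 and all genes called lower 812 (3315 and 2531 with the deposited values), 26 members and 15 type I members were higher, 42 pathway genes were higher and 9 lower, and the medians were 0.277 (type I) and 0.709 (interferon gamma). Ifngr1 turned to 0.15 with that scaling. All genes called higher at a mean of at least 5 FPKM numbered 2018, and quantile normalization gave 2438 higher and 3801 lower. The type I median was -0.0431 with median-of-ratios scaling and -0.0455 after quantile normalization. The interferon gamma median was 0.364 with a pseudocount of 5, 0.368 with median-of-ratios scaling, and 0.405 to 0.45 with a library left out. The 1 interferon gamma member called lower, Gbp3, was not called (0 lower) with the T cell list scaling, without a variance trend, with the replicate block, with voom, and with any 1 library left out. With a library left out 0 to 1 interferon gamma members were lower, the 1 being Gbp7 without WT 2 (-0.24, limma adjusted p = 0.0218). The cause of these shifts was not tested. A fit that leaves 1 library in a group assumes that it varies like the other group. The replicate numbers do not pair the samples by any label, and the correlation of same-numbered deviations was -0.0247. With the replicate block 15 members were higher and 7 lower, against 16 and 8 without it. The lowest-read members, Ifit3 and Ifi44, had 85 to 255 and 90 to 181 reads.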

Other observations

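Families of interferon-stimulated genes outside the set, named after their values were seen, also moved. Ifitm1, Ifitm2 and Ifitm3, which encode membrane proteins that block virus entry, were lower in Tbx21-KO with the deposited values. Ifitm1 was at 639 and 649.6 FPKM in Tbx21-KO, against 1145 and 1301 FPKM in WT (log2 fold change -0.92, SE 0.07, limma adjusted p = 0.000656). Ifitm2 and Ifitm3 had log2 fold changes of -0.47 each, and with the T cell list scaling Ifitm2 was not called (-0.17), while Ifitm3 was still lower (-0.16). Of the Ifi200 family, Ifi203, Ifi209 and Ifi213 were lower, by log2 fold changes of -0.49, -1.14 and -0.94, and Ifi204 was higher. Irf8, a factor of myeloid cells and activated lymphocytes, was at 29.5 and 31.2 FPKM in Tbx21-KO and at 55.5 and 53.0 FPKM in WT (log2 fold change -0.82).

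Oas1g, another oligoadenylate synthetase, was at 1.74 and 2.15 FPKM in Tbx21-KO and at 0.0342 and 0.0531 FPKM in WT. These values correspond to 95 and 121 reads in Tbx21-KO and to 2 and 3 reads in WT. The WT reads are too few to size the difference. The mean of Oas1g, just under 1 FPKM, left it untested.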
